A study of Homo sapiens with 6 samples.

Results

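The 44 genes described here are interferon-stimulated genes, that is, genes whose transcription rises when a cell senses an interferon. They were taken by symbol from a list of antiviral effectors, sensors and regulators, and all 44 were found among the 25369 genes of the deposited files. The samples were Caki2 cells, an established clear cell renal cell carcinoma (ccRCC) line without PBRM1 protein, carrying either an empty doxycycline-inducible lentiviral vector (Caki2+Vector, n = 3) or the same kind of vector with full-length PBRM1 (Caki2+PBRM1, n = 3). PBRM1 is a bromodomain subunit found in the PBAF form of the SWI/SNF chromatin remodeler and not in the BAF form. All 6 cultures, A, B and C of each group, received doxycycline at 2 µg/mL and no interferon is named in the labels or the methods. Expression came from a tet-inducible promoter with a separate rtTA virus, each group was a single stable line selected with drugs, and whether a line was a clone or a pool is not given in the sources used here. An effect of PBRM1 and a difference between the 2 derived lines therefore cannot be told apart. The replicates are called biological in the study, but the labels name no separate infections, so p-values measure the spread between these cultures.

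Interferons of type I (IFN-alpha and IFN-beta) and type III act through receptors that activate the kinases JAK1 and TYK2. STAT2 is then phosphorylated and enters, with IRF9, the ISGF3 complex, which binds the interferon-stimulated response element in the promoters of most genes of the list. Interferon-gamma acts at gamma-activated sites and strongly induces guanylate-binding proteins and IRF1. Many carcinoma lines keep a basal level of these genes without added interferon.

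Poly(A) RNA had been sequenced, with 7312955 to 10835355 reads on genes per sample, and values are normalized counts, the reads on a gene divided by a size factor for the sample. One read was worth 0.839 to 1.2 normalized counts, depending on the sample. PBRM1 itself had a normalized count of 195, 182 and 182 in Caki2+Vector A, B and C. In Caki2+PBRM1 A, B and C it was 2432, 2521 and 2682. Its mRNA was thus present in Caki2+Vector and much higher in Caki2+PBRM1. The paper reports PBRM1 mRNA in all its ccRCC lines and attributes the missing protein of Caki2 to a deletion in the gene. Caki2+Vector A stood apart from the other replicates. The chi-square per degree of freedom was 3.09 and 2.84 between Caki2+Vector A and Caki2+Vector B and C, against 1.34 between these and 1.19 to 1.22 among the pairs of Caki2+PBRM1. All 9 renal epithelial markers examined reached a normalized count of 10 in at least 1 sample, among them PAX8, KRT8, KRT18 and VIM. CA9 and AQP1 did so only in Caki2+PBRM1, at up to 15.2 and 13.3, and both were under the filter given below. Of 6 fibroblast markers, COL1A1 and PDGFRB reached 10 in all samples and the others in none. The endothelial markers did not reach 10 in any sample. Of 11 leukocyte markers only CD68, ITGAM and CD74 reached 10. CD3E, MS4A1 and HLA-DRA were at 0 in all samples and PTPRC did not exceed 5.7. The summed leukocyte list ranged from 2355.4 to 2587.7 over the Caki2+Vector cultures and from 2215.7 to 2252.3 over those of Caki2+PBRM1, and its part in the results below was not tested.

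The response element can be seen in the promoters of members that moved in opposite directions. The core of the element, GAAA followed after any 2 bases by another GAAA, was searched on both strands in the RefSeq promoter windows of 250 bases before to 50 after the transcription start (GRCh38.p14). Of the 35 members with an entry, 25 (71.4%) held it in at least 1 window. The share was 4.01% among 9825 tested genes with an entry and 3.57% among all 35116 promoters of the table. The core was present in 4 of 5 genes higher in Caki2+PBRM1, in 12 of 14 lower genes and in 9 of 15 genes that did not pass the test below. For the gamma-activated site TTCNNNGAA, the share was 28.6% of members, 8.53% of the tested genes with an entry and 7.66% of all promoters. This match was found in 0 of the 5 higher genes, in 4 of the 14 lower genes and in 6 of the 15 others. IFITM2, IFIT2, OAS2, OASL, MX2, GBP2, USP18, IRF7 and TRIM22 had no entry. The 170 bases before the start are printed 5′ to 3′ on the strand of the gene for 4 genes that were higher and 2 that were lower, with matches to the core or its reverse complement (TTTC, any 2 bases, TTTC) in capitals. They are shown because the same letters precede genes of both directions, and because the window of SAMD9L, the gene with the largest difference of the 44, holds no match.
SAMD9L, chr7:93148386-93148555, minus strand: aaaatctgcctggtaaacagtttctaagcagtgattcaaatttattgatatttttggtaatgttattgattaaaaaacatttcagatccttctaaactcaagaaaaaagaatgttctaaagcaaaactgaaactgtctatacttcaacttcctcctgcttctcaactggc
SAMD9, chr7:93117980-93118149, minus strand: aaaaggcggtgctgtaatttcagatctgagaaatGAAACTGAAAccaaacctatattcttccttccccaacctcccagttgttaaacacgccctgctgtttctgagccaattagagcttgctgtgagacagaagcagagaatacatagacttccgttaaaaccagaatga
GBP1, chr1:89065209-89065378, minus strand: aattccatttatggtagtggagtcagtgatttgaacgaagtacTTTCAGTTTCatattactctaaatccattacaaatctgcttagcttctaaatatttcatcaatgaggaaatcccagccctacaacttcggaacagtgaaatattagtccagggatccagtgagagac
IFI44L, chr1:78620278-78620447, plus strand: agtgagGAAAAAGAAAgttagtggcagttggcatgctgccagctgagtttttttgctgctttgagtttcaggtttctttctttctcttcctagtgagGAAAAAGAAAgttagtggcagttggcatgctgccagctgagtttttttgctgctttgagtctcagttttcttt
BST2, chr19:17405631-17405800, minus strand: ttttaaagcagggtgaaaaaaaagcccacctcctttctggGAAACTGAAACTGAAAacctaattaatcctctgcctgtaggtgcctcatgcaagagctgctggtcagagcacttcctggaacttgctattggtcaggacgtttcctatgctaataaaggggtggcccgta
IFIT1, chr10:89392453-89392622, plus strand: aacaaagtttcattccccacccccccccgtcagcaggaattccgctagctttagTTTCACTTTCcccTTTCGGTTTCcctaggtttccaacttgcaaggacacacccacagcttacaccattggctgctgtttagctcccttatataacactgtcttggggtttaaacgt
The printed stretch of IFI44L holds a repeated segment with 1 match in each copy, and those of BST2 and IFIT1 hold pairs of matches close to one another. A match describes letters only and is not evidence that a factor binds.

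Many interferon-stimulated genes had lower counts in Caki2+PBRM1 than in Caki2+Vector, and a smaller group had higher counts. SAMD9L, GBP1 and TRIM22 differed most among the higher genes, and each passed the filter given next only through Caki2+PBRM1. Of the 44 genes, 43 passed the filter, which asked for 10 or more normalized counts in 3 or more samples, and XAF1 did not. Log2(normalized count + 1) was compared with limma's moderated test and Benjamini-Hochberg adjustment over 13303 genes, with an adjusted p under 0.05 as the threshold. By this test 8 genes (18.6%) were higher in Caki2+PBRM1, where 16.2% of all tested genes were, and 18 (41.9%) were lower, where 13.0% of all tested genes were. The other 17 did not pass. The share of higher members was thus near that of all genes, and the share of lower members was above it. The list was chosen with earlier results of these data known, so these shares are a description only. The median log2 fold change of the 43 genes was -0.188, against -0.004 over all tested genes. All 3 Caki2+PBRM1 values lay above all 3 Caki2+Vector values for 8 members (22.1% of all tested genes did so), and below them for 20 (19.6% of all tested genes). The exact two-sided permutation test of a single gene gives 0.1 for each of these 28, the smallest p that 3 against 3 samples allow. In either direction, 29.2% of all tested genes passed. On the recovered reads, edgeR called 8 members higher and 18 lower, against 16.5% and 13.8% of all tested genes, and DESeq2 called 6 and 15, against 11.2% and 7.95%.

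Summed over the 18 lower genes, normalized counts were 11679.2, 11214.4 and 11065.1 in Caki2+Vector A, B and C and 7890.9, 8001.3 and 7526.8 in Caki2+PBRM1 A, B and C. Over the 8 higher genes the sums were 3399.5, 4007.7 and 4016.4 in Caki2+Vector and 4671.7, 4657.5 and 4565.8 in Caki2+PBRM1. LGALS3BP made up most of the second sum. The genes of each sum were picked by their difference in these same samples, so the directions of the sums were fixed in advance. The sums show the size and the spread between cultures only. Replicates of the members varied about as much as those of other genes in Caki2+Vector and somewhat more in Caki2+PBRM1, with a median coefficient of variation over the 43 genes of 7.0% in the first and 6.53% in the second group, against 6.85% and 5.12% over all tested genes. In bulk RNA, fewer cells expressing a gene and less RNA of it per cell cannot be told apart. Sorted by log2 fold change, the higher genes spread from 0.21 to 3.95 and the lower genes from -1.16 to -0.19.

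**Figure D1:**
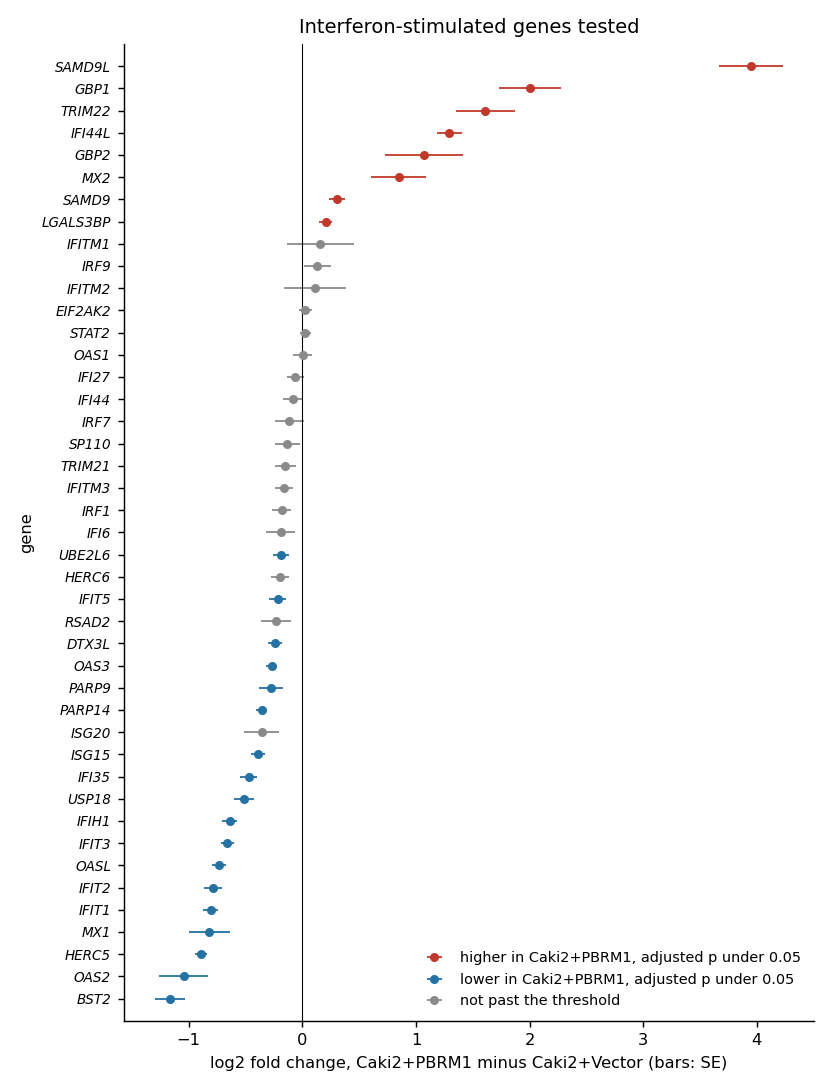
Log2 fold change of the 43 tested interferon-stimulated genes, Caki2+PBRM1 minus Caki2+Vector, on the log2(normalized count + 1) scale, with bars for the SE of limma's moderated test. Points in red (8 genes) and blue (18 genes) passed an adjusted p of 0.05, and SAMD9L stands alone at 3.95.

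SAMD9L and SAMD9, antiviral paralogs that restrict poxviruses and slow cell growth, were both higher in Caki2+PBRM1 and differed in size. They are adjacent on chromosome 7 (GRCh37, minus strand), SAMD9 at chr7:92728826-92747336 and SAMD9L at chr7:92759369-92777698. SAMD9L had normalized counts of 5.68, 2.83 and 2.40 in Caki2+Vector and of 66.1, 64.0 and 72.2 in Caki2+PBRM1, each in the order A, B and C as in all values that follow. The limma fit put the log2 fold change at 3.95 with an SE of 0.28 and an adjusted p of 4.44e-12. Caki2+Vector held 11 SAMD9L reads in all 3 libraries together and Caki2+PBRM1 219, a ratio of 18.1 after size factors, with an exact 95% interval of 9.93 to 36.8 that covers counting error only. The gene was thus close to the limit of detection in the control line and readily counted in each Caki2+PBRM1 culture. It reached 10 only in Caki2+PBRM1, so it could enter the test only through the group where it was high. SAMD9 had normalized counts of 345, 328 and 375 in Caki2+Vector against 446, 444 and 406 in Caki2+PBRM1. On the log2 scale SAMD9 differed by 0.31 (limma, SE 0.07, adjusted p = 0.00123). The number of SAMD9L reads per SAMD9 read was 0.0165, 0.0086 and 0.0064 in Caki2+Vector and 0.148, 0.144 and 0.178 in Caki2+PBRM1, so the 2 neighbors did not move in proportion.

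Genes around the pair differed in their response. SAMD9 begins 12033 bases from SAMD9L. Beyond SAMD9, no tested gene examined passed. The nearest, CDK6 at 293482 bases, gave a log2 fold change of 0.08 (adjusted p = 0.282 from limma). On the other side, HEPACAM2 at 40149 bases was at 0 in 5 samples and at 1.2 in Caki2+Vector C, and CCDC132, a subunit of a vesicle tethering complex, at 83955 bases did not pass the test (log2 fold change 0.04, adjusted p = 0.79 from limma). CALCR, the calcitonin receptor, lies 276100 bases away and had normalized counts of 12.3, 21.7 and 28.8 in Caki2+Vector and of 95.3, 110.2 and 85.6 in Caki2+PBRM1. By limma the difference on the log2 scale was 2.23, its SE 0.23 and its adjusted p 9.51e-08. CALCR is no member of the list. The tested genes farther out on the same side, TFPI2, GNG11 and BET1, were also higher and are no members either. Their log2 fold changes were 0.38, 0.205 and 0.48 (adjusted p = 6.16e-08, 0.00324 and 0.000114 from limma).

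TRIM22, a RING domain ubiquitin ligase that restricts several viruses, had normalized counts of 8.52, 10.4 and 8.39 in Caki2+Vector and of 31.4, 28.4 and 29.4 in Caki2+PBRM1. The fitted log2 difference was 1.61 with an SE of 0.26, and limma's adjusted p was 1.91e-05. The 27 reads of Caki2+Vector and 96 of Caki2+PBRM1 gave a ratio of 3.24 (exact 95% counting interval 2.09 to 5.16). All 3 values of Caki2+PBRM1 lay well above those of Caki2+Vector, although both groups were low. The gene reached 10 in 1 Caki2+Vector sample (10.4), so it entered the test only through Caki2+PBRM1. TRIM22 (chr11:5710840-5758319, plus strand, GRCh37) shares 642 bases of annotated exon with the olfactory receptor gene OR56B1 on the same strand, which leaves the assignment of reads in that stretch uncertain. The related TRIM21, a cytosolic antibody receptor and ubiquitin ligase, had 305, 253 and 236 in Caki2+Vector against 259, 235 and 219.9 in Caki2+PBRM1, overlapping groups that did not pass (log2 fold change -0.15, adjusted p = 0.238 from limma). TRIM22 reads per TRIM21 read were 0.0280, 0.0410 and 0.0355 in Caki2+Vector and 0.121, 0.121 and 0.134 in Caki2+PBRM1. Among the neighbors of TRIM22, TRIM6 was lower with 111, 125 and 113 in Caki2+Vector against 79.1, 82.7 and 79.7 in Caki2+PBRM1 (log2 fold change -0.52, adjusted p = 0.00127 from limma). TRIM5, a retroviral restriction factor, did not pass (log2 fold change -0.11), nor did TRIM68 (-0.10) and TRIM3 (0.02), and TRIM34 was listed at 0 in all samples, a value that does not show absence because it was not tested whether the gene models kept its reads.

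The interferon-induced GTPases went both ways. GBP1 and GBP2, guanylate-binding proteins that coat intracellular pathogens, rose. GBP1 had normalized counts of 7.57, 8.50 and 5.99 in Caki2+Vector and of 34.7, 31.1 and 31.1 in Caki2+PBRM1. For GBP1 limma gave 2.00 on the log2 scale (SE 0.27) and an adjusted p of 1.12e-06. The groups were far apart, with 22 against 104 reads and a ratio of 4.30 (exact 95% counting interval 2.70 to 7.16), but like SAMD9L this gene reached 10 only in Caki2+PBRM1. GBP2 had 12.3, 4.72 and 7.19 in Caki2+Vector against 13.0, 16.0 and 23.5 in Caki2+PBRM1, so that Caki2+Vector A came close to the lowest Caki2+PBRM1 culture. GBP2 thus differed by 1.07 in log2 units, with an SE of 0.34 and an adjusted p of 0.018 from limma. It reached 10 in Caki2+Vector A alone of the control cultures and so entered the test through Caki2+PBRM1. This call was lost with DESeq2 (adjusted p = 0.103), without Caki2+Vector B (0.105 from limma) and without Caki2+PBRM1 C (0.146 from limma), and GBP2 shares 621 bases of exon with GBP7. MX2, which blocks nuclear entry of HIV, had 16.1, 13.2 and 22.8 in Caki2+Vector and 34.7, 32 and 27.7 in Caki2+PBRM1. The limma fit put the log2 fold change at 0.85 with an SE of 0.24 and an adjusted p of 0.00779. The 50 and 101 reads gave a ratio of 1.84 (exact 95% counting interval 1.30 to 2.63), and the call was lost with DESeq2 (adjusted p = 0.0606). MX1, the paralog that inhibits influenza virus, moved the opposite way, from 51.1, 56.7 and 50.3 to 27.1, 32.9 and 28.5. On the log2 scale MX1 differed by -0.82 (limma, SE 0.18, adjusted p = 0.000795). MX2 and MX1 are neighbors on the plus strand of chromosome 21, at chr21:42733926-42781320 and chr21:42791947-42841998 of GRCh37. There were 0.315, 0.233 and 0.452 MX2 reads per MX1 read in Caki2+Vector and 1.28, 0.973 and 0.971 in Caki2+PBRM1.

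IFI44L and LGALS3BP were also higher. IFI44L encodes a cytoplasmic protein used as a marker of type I interferon activity, and it had normalized counts of 72.9, 75.6 and 75.5 in Caki2+Vector and of 167, 207 and 182 in Caki2+PBRM1. By limma the difference on the log2 scale was 1.29, its SE 0.11 and its adjusted p 2.79e-10. Its neighbor IFI44 had 368, 334 and 290.1 in Caki2+Vector against 289, 328 and 316 in Caki2+PBRM1, with overlapping groups (log2 fold change -0.08, adjusted p = 0.479 from limma). IFI44L reads per IFI44 read thus went from 0.198, 0.226 and 0.260 to 0.577, 0.631 and 0.577. LGALS3BP, a secreted glycoprotein that binds galectins, had the highest count per transcript length of the list and had 2932, 3565 and 3519 in Caki2+Vector and 3879, 3834 and 3794 in Caki2+PBRM1. The fitted log2 difference was 0.21 with an SE of 0.06, and limma's adjusted p was 0.0187. Most of the spread came from Caki2+Vector A, and limma's adjusted p was 0.0502 without Caki2+PBRM1 A. Over the other fits the log2 fold change of LGALS3BP ranged from 0.115 to 0.256.

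**Figure D2:**
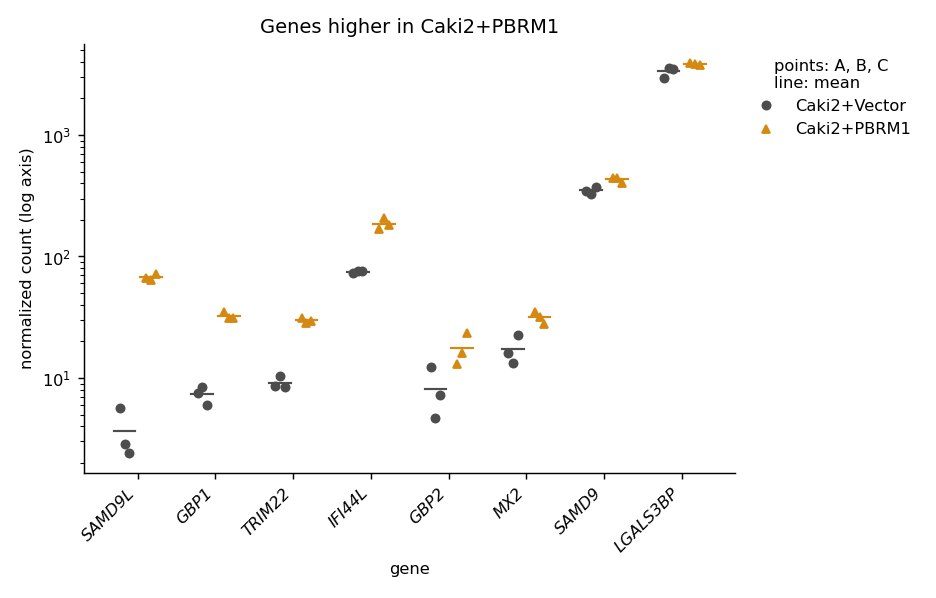
Normalized counts (log axis) of the 8 genes that were higher in Caki2+PBRM1, with a point for each of the cultures A, B and C and a line at the group mean. The groups do not overlap for any of the 8, and SAMD9L goes from at most 5.68 in Caki2+Vector to at least 64.0 in Caki2+PBRM1.

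All 4 IFIT genes, whose tetratricopeptide repeat products bind viral RNA that lacks the marks of host messages, were lower in Caki2+PBRM1. They share a cluster on the plus strand of chromosome 10. IFIT1 (chr10:91152303-91166244, GRCh37) had normalized counts of 1092, 967 and 938 in Caki2+Vector and of 579, 617 and 518 in Caki2+PBRM1. For IFIT1 limma gave -0.81 on the log2 scale (SE 0.06) and an adjusted p of 4.96e-10. IFIT2, which also promotes apoptosis, had 1166, 955 and 953 in Caki2+Vector against 584, 654 and 544 in Caki2+PBRM1. IFIT2 thus differed by -0.78 in log2 units, with an SE of 0.08 and an adjusted p of 7.05e-07 from limma. IFIT3, which stabilizes IFIT1 on RNA, had 1239, 1123 and 1042 in Caki2+Vector against 739, 713 and 695 in Caki2+PBRM1. The limma fit put the log2 fold change at -0.66 with an SE of 0.06 and an adjusted p of 2.8e-10. For these 3 genes every Caki2+PBRM1 culture was below every Caki2+Vector culture by a wide margin. IFIT5 was closer, with 309, 286 and 310.4 in Caki2+Vector against 277, 257 and 244 in Caki2+PBRM1. On the log2 scale IFIT5 differed by -0.22 (limma, SE 0.08, adjusted p = 0.0348). It no longer passed with DESeq2 (adjusted p = 0.133) or without Caki2+Vector A (0.0507 from limma), Caki2+Vector C (0.0968), Caki2+PBRM1 B (0.103) or Caki2+PBRM1 C (0.17). IFIT5 reads per IFIT1 read were 0.282, 0.296 and 0.331 in Caki2+Vector and 0.479, 0.416 and 0.472 in Caki2+PBRM1.

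Of the 5 genes of ISG15 conjugation, 4 were lower by the test, beside 13.0% of all tested genes. ISG15 is a ubiquitin-like protein that is joined to other proteins and also secreted, and it had normalized counts of 564, 619.8 and 572 in Caki2+Vector and of 452, 445 and 438 in Caki2+PBRM1. By limma the difference on the log2 scale was -0.39, its SE 0.06 and its adjusted p 1.01e-05. HERC5, the main ligase for ISG15 in human cells, had 1098, 1003 and 1012 in Caki2+Vector against 556, 583 and 536 in Caki2+PBRM1. The fitted log2 difference was -0.89 with an SE of 0.06, and limma's adjusted p was 1.42e-13. This was the lowest adjusted p among the 43 genes. USP18, the protease that removes ISG15 and damps receptor signalling, had 248, 248 and 219 in Caki2+Vector against 166, 179 and 157 in Caki2+PBRM1. For USP18 limma gave -0.51 on the log2 scale (SE 0.09) and an adjusted p of 5.99e-05. USP18 has a near-identical copy, so its reads may be split between loci. UBE2L6, the conjugating enzyme between the activating enzyme and HERC5, differed least, with 391.9, 404 and 405 in Caki2+Vector against 363, 344 and 347 in Caki2+PBRM1. UBE2L6 thus differed by -0.19 in log2 units, with an SE of 0.07 and an adjusted p of 0.0341 from limma. That call was lost with DESeq2 (adjusted p = 0.132), with no filter on low counts (0.0549 from limma) and without Caki2+Vector B or C or Caki2+PBRM1 B or C (0.0757 to 0.122 from limma). HERC6, next to HERC5 on chromosome 4, had 275, 273 and 284 in Caki2+Vector against 235, 254 and 237 in Caki2+PBRM1, groups that did not overlap but missed the threshold (log2 fold change -0.20, adjusted p = 0.0578 from limma). HERC5 reads per HERC6 read were 4.0, 3.67 and 3.56 in Caki2+Vector and 2.36, 2.29 and 2.27 in Caki2+PBRM1.

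The oligoadenylate synthetases make a second messenger that activates RNase L, and OASL, which has lost that activity, enhances RNA sensing. OASL had normalized counts of 912, 914 and 864 in Caki2+Vector and of 561, 560.0 and 498 in Caki2+PBRM1. The limma fit put the log2 fold change at -0.73 with an SE of 0.06 and an adjusted p of 3.41e-11. OAS2 had 35.0, 41.6 and 40.8 in Caki2+Vector against 15.2, 20.4 and 20.1 in Caki2+PBRM1. On the log2 scale OAS2 differed by -1.04 (limma, SE 0.22, adjusted p = 0.000442). OAS3, which makes most of the messenger during viral infection, had 1384, 1557 and 1544 in Caki2+Vector against 1194, 1264 and 1256 in Caki2+PBRM1. By limma the difference on the log2 scale was -0.27, its SE 0.05 and its adjusted p 8.49e-05. All 3 were lower in each Caki2+PBRM1 culture. OAS1, in the same chromosome 12 cluster as OAS2 and OAS3, had 244, 232 and 234 in Caki2+Vector against 227, 227 and 260.2 in Caki2+PBRM1, with overlapping groups (log2 fold change 0.01, SE 0.08, adjusted p = 0.971 from limma). OAS2 reads per OAS1 read were 0.143, 0.179 and 0.174 in Caki2+Vector and 0.0667, 0.0902 and 0.0774 in Caki2+PBRM1. ISG20, an exonuclease that degrades viral RNA, had 70.1, 82.2 and 59.9 in Caki2+Vector against 61.7, 49.8 and 52.9 in Caki2+PBRM1 (log2 fold change -0.36, adjusted p = 0.0852 from limma), and it passed without Caki2+Vector C (0.0357) and after quantile normalization (0.0454).

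At the membrane, BST2 showed the lowest log2 fold change of the whole list. BST2, also called tetherin, holds budding virions at the cell surface. It had normalized counts of 178, 178 and 139 in Caki2+Vector and of 88.8, 64.9 and 66.3 in Caki2+PBRM1. The fitted log2 difference was -1.16 with an SE of 0.13, and limma's adjusted p was 8.12e-08. The highest Caki2+PBRM1 culture was well below the lowest Caki2+Vector culture. IFITM1, IFITM2 and IFITM3, which hinder fusion of viruses with endosomes, did not pass the test, with log2 fold changes of 0.16, 0.11 and -0.16. IFITM3 had 367, 457 and 472 in Caki2+Vector and 386, 382 and 383 in Caki2+PBRM1, and without Caki2+Vector A, the one culture below the Caki2+PBRM1 values, its adjusted p was 0.000608 (limma). The 3 IFITM genes are near-identical in sequence, so that reads may be split or lost between them.

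IFIH1, the MDA5 sensor of long double-stranded RNA, had normalized counts of 573, 516 and 506 in Caki2+Vector and of 341, 359 and 321 in Caki2+PBRM1. For IFIH1 limma gave -0.64 on the log2 scale (SE 0.07) and an adjusted p of 1.64e-08. EIF2AK2, the PKR kinase that halts translation on double-stranded RNA, had 792, 704 and 826 in Caki2+Vector against 803, 816 and 744 in Caki2+PBRM1, with overlapping groups (log2 fold change 0.03, SE 0.06, adjusted p = 0.773 from limma). Both proteins recognize the same kind of RNA, and their transcripts gave different outcomes in this test; the difference itself was not tested. IFI35, a partner of NMI in the cytosol, had 409.9, 462 and 418 in Caki2+Vector against 305, 339 and 285 in Caki2+PBRM1. IFI35 thus differed by -0.47 in log2 units, with an SE of 0.07 and an adjusted p of 1.23e-05 from limma.

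PARP14, PARP9 and DTX3L, which lie within chr3:122246771-122449687 of GRCh37, were lower by smaller amounts. PARP14, an ADP-ribosyltransferase that acts in macrophage and lymphocyte cytokine responses, had normalized counts of 1307, 1191 and 1293 in Caki2+Vector and of 1001, 979 and 979 in Caki2+PBRM1. The limma fit put the log2 fold change at -0.36 with an SE of 0.05 and an adjusted p of 1.26e-06. DTX3L, the ubiquitin ligase that pairs with PARP9, had 554, 524 and 602 in Caki2+Vector against 494, 471 and 455 in Caki2+PBRM1. On the log2 scale DTX3L differed by -0.24 (limma, SE 0.06, adjusted p = 0.00464). PARP9 had 167, 166 and 157 in Caki2+Vector against 148, 120.0 and 137 in Caki2+PBRM1. By limma the difference on the log2 scale was -0.28, its SE 0.10 and its adjusted p 0.042. None of the 3 genes had overlapping groups, but PARP9 lost its call with DESeq2 (adjusted p = 0.159), with no filter on low counts (0.0596 from limma) and without Caki2+Vector A, Caki2+Vector B, Caki2+PBRM1 B or Caki2+PBRM1 C (0.065 to 0.231 from limma). PARP9 and DTX3L are transcribed away from each other on opposite strands and share 139 bases of annotated exon.

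**Figure D3:**
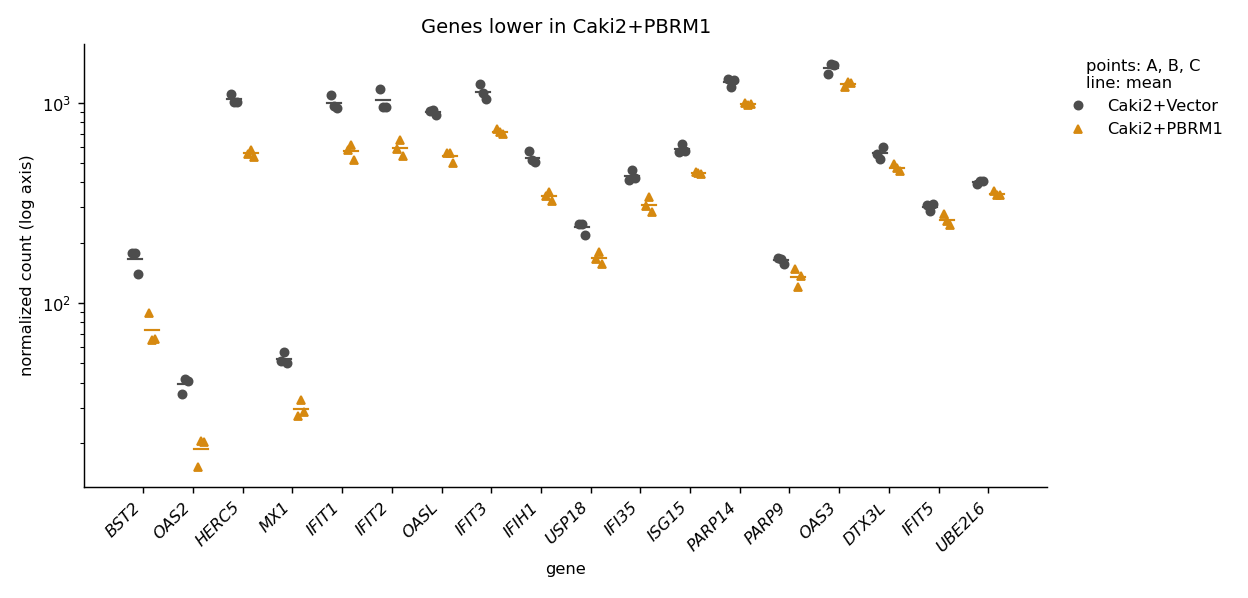
Normalized counts (log axis) of the 18 genes that were lower in Caki2+PBRM1, ordered by log2 fold change, with a point for each of the cultures A, B and C and a line at the group mean. The groups do not overlap for any of the 18, and the distance between them shrinks from BST2 (log2 fold change -1.16) to UBE2L6 (-0.19).

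The 5 transcription factors of the list gave no call in either direction, where 29.2% of all tested genes passed. So few genes cannot be set apart from that share. STAT2, which with IRF9 forms ISGF3, had normalized counts of 964, 939 and 943 in Caki2+Vector and of 980.3, 959 and 961 in Caki2+PBRM1 (log2 fold change 0.03, SE 0.05, adjusted p = 0.722 from limma). None of the other 4 passed either. IRF9 gave a log2 fold change of 0.13 (SE 0.12), IRF7, which drives IFN-alpha transcription, of -0.11 (SE 0.13), IRF1 of -0.18 (SE 0.09) and SP110, a nuclear body protein, of -0.13 (SE 0.11). With these errors a difference as large as that of HERC5 or IFIT1 would stand out, while one as small as that of UBE2L6 could be missed. The IRF1 groups did not overlap (adjusted p = 0.115 from limma). RSAD2 (viperin), which blocks replication of many RNA viruses, and IFI6 and IFI27, small hydrophobic proteins, did not pass, with log2 fold changes of -0.23, -0.19 and -0.06. IFI6 had 160.0, 170.1 and 239.7 in Caki2+Vector against 149, 186 and 159 in Caki2+PBRM1, and its adjusted p fell to 0.029 (limma) without Caki2+Vector A. XAF1, a pro-apoptotic partner of XIAP, was at most at 4.72 in any sample and was not tested.

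Neighboring members did not always move together. The list holds 9 loci with at least 2 members, defined by position on GRCh37. All members of the IFIT and PARP9 loci were lower, and all members of the GBP and SAMD9 loci were higher. Of all tested genes, 13.0% were lower and 16.2% higher. The calls of IFIT5, PARP9 and GBP2 were lost in some of the other fits. SAMD9L, GBP1 and GBP2 passed the filter only through Caki2+PBRM1. Of the other genes in the GBP cluster, GBP3 did not pass (log2 fold change 0.207, adjusted p = 0.052 from limma). GBP4 and GBP5 were under the filter. The MX locus split into a higher and a lower gene. In the IFI44L, OAS and HERC loci called genes stood beside a gene that did not pass, and in the IFITM locus, with IRF7, no gene passed. A difference between a called and an uncalled neighbor was not tested.

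**Figure D4:**
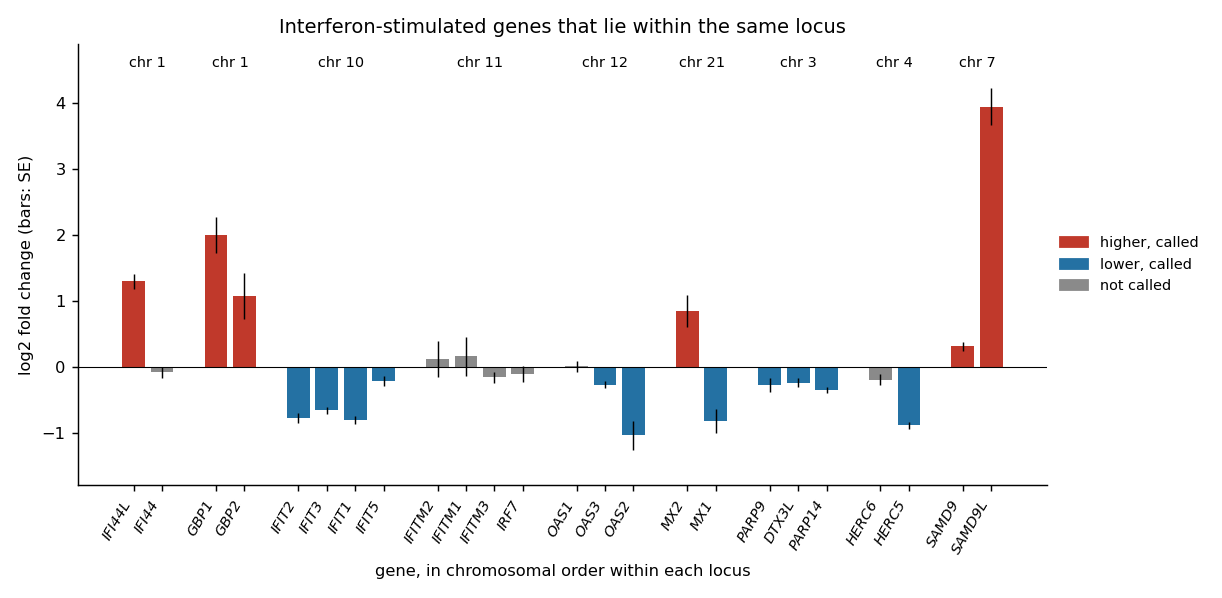
Log2 fold change (bars) and its SE (lines) for the members that share a locus, in chromosomal order, with the chromosome above each group. MX2 (0.85) and MX1 (-0.82) point in opposite directions within one locus, and all 4 IFIT genes point down.

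Of the 8 higher genes, 5 had the lowest levels of the list in Caki2+Vector apart from XAF1. Divided by the length of the canonical transcript, the mean normalized count in Caki2+Vector was 0.509 per kb for SAMD9L, 1.98 for GBP2, 2.55 for GBP1, 3.15 for TRIM22 and 5.10 for MX2. XAF1 was at 0.553 per kb. The Caki2+Vector level is also part of the fold change, and SAMD9L, GBP1, TRIM22 and GBP2 passed the filter only through Caki2+PBRM1. A low control level and a higher call were thus partly tied in advance for these genes, and no link is drawn from them. At the other end of this scale, in Caki2+Vector, were LGALS3BP at 1516 per kb, ISG15 at 919, IFITM3 at 707 and IFIT3 at 475. Among the 38 members with at least 10 in all 6 samples, 4 (10.5%) were higher (IFI44L, MX2, SAMD9 and LGALS3BP) and 18 (47.4%) lower. The median log2 fold change of the 38 was -0.207. Of all tested genes, without that restriction, 16.2% were higher and 13.0% lower. Since SAMD9L, GBP1, TRIM22 and GBP2 are left out of the 38 by construction, these counts say nothing of them.

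Interferons themselves were barely detected. None of 21 interferon ligand genes passed the filter, and the highest value of any was 9.23 (IFNE in Caki2+PBRM1 C). IFNB1, chosen for mention after its values were seen, had normalized counts of 1.89, 1.89 and 2.40 in Caki2+Vector and of 0, 0.889 and 0 in Caki2+PBRM1, which is 6 reads against 1. No difference in IFNB1 can be drawn at this depth. Receptors were expressed in all samples. Both subunits of the type I receptor did not pass, with log2 fold changes of 0.09 (IFNAR1) and 0.10 (IFNAR2). The subunits of the interferon-gamma receptor moved apart. IFNGR1, the ligand-binding chain, had 551, 546 and 543 in Caki2+Vector and 746, 748 and 764 in Caki2+PBRM1 (log2 fold change 0.46, adjusted p = 1.04e-07 from limma), and IFNGR2 had 755, 711 and 761 in Caki2+Vector against 559, 563 and 605 in Caki2+PBRM1 (log2 fold change -0.37, adjusted p = 9.5e-06 from limma). Of the type III receptor, IL10RB was lower (-0.23, adjusted p = 0.0103 from limma), a call lost with DESeq2 and without Caki2+Vector C or Caki2+PBRM1 A, and IFNLR1 did not pass (-0.24, adjusted p = 0.165 from limma).

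Downstream of the receptors, the kinases JAK2 and TYK2 did not pass (log2 fold changes of -0.04 and 0.03) and the calls were of transcription factors. Of the 7 tested genes in the JAK, STAT and IRF list, 1 was higher (STAT3, log2 fold change 0.18) and 3 were lower (IRF8 -0.58, IRF2 -0.25 and IRF5 -0.24), where 16.2% and 13.0% of all tested genes were. All 3 lower calls were lost with DESeq2 and none of them held in every fit with a replicate left out. IRF8 and IRF5 lost theirs without Caki2+Vector B or C or Caki2+PBRM1 A or C, and IRF2 without Caki2+Vector C or Caki2+PBRM1 B. IRF8 was also not called by edgeR, nor IRF5 with no filter on low counts. IRF3, which turns on interferon transcription, did not pass (-0.14, adjusted p = 0.111 from limma). JAK1, singled out after its values were seen, was listed at 1.89, 1.89 and 0 in Caki2+Vector and 1.08, 2.67 and 1.68 in Caki2+PBRM1, 2 reads or fewer in Caki2+Vector libraries and 3 or fewer in Caki2+PBRM1 libraries. Whether the gene models used for counting kept the reads of JAK1 was not tested, so these values do not show that JAK1 was absent.

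Of 16 tested sensors of foreign RNA and DNA, 4 were higher and 2 (12.5%) lower, beside 16.2% and 13.0% of all tested genes. TLR3, the endosomal receptor for double-stranded RNA, had normalized counts of 122, 102 and 105 in Caki2+Vector and of 206, 191 and 175 in Caki2+PBRM1 (log2 fold change 0.79, adjusted p = 8.79e-07 from limma). MAVS, the adaptor of the RIG-I family, was higher at 0.26. SAMHD1, a dNTP hydrolase, was higher at 0.33, a call lost with DESeq2 and without Caki2+PBRM1 A or C. TMEM173 (STING), named after its values were seen, passed narrowly at 0.26 (adjusted p = 0.0476 from limma), with overlapping groups and a call lost with DESeq2 and without Caki2+Vector A or B or Caki2+PBRM1 B or C. The 2 lower genes belong with IFIH1 to the RIG-I family, DHX58 at -0.45 and DDX58 (RIG-I) at -0.32. None of 6 negative regulators passed, with values from -0.12 (PTPN6) to 0.39 (SOCS1).

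Of 58 further interferon-stimulated genes, 48 could be tested, and 7 (14.6%) were higher and 15 (31.2%) lower, beside the same 16.2% and 13.0%. CCL5, a T cell chemoattractant, had normalized counts of 1061, 1083 and 1027 in Caki2+Vector and of 503, 472 and 402 in Caki2+PBRM1. The fitted log2 difference was -1.21 with an SE of 0.07, and limma's adjusted p was 5.86e-14. LAMP3, a lysosomal protein, gave a log2 fold change of -1.07 and TYMP, thymidine phosphorylase, of -0.67. CD274 (PD-L1), the immune checkpoint ligand, was higher with 111, 105 and 103 in Caki2+Vector against 183, 198 and 193 in Caki2+PBRM1 (log2 fold change 0.84, adjusted p = 1.1e-07 from limma), and so was C1S, a complement protease, at 0.63. Over the 6 pathway lists together, 83 of 117 genes were tested, 13 (15.7%) were higher and 22 (26.5%) lower, and the median log2 fold change was -0.027. Those shares stand beside 16.2% and 13.0% of all tested genes. The 83 genes thus had a share of higher calls near that of all genes and a share of lower calls above it, as the 43 members had. Of the 22 lower genes, 15 came from the list of further interferon-stimulated genes. Both sets were chosen with earlier results of these data known, so 1 set is no independent support for the other. CD74, an antigen presentation chaperone on the leukocyte marker list, was lower as well, with 179.9, 213 and 201 in Caki2+Vector against 119, 114 and 112 in Caki2+PBRM1 (log2 fold change -0.78, adjusted p = 4.86e-07 from limma).

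**Figure D5:**
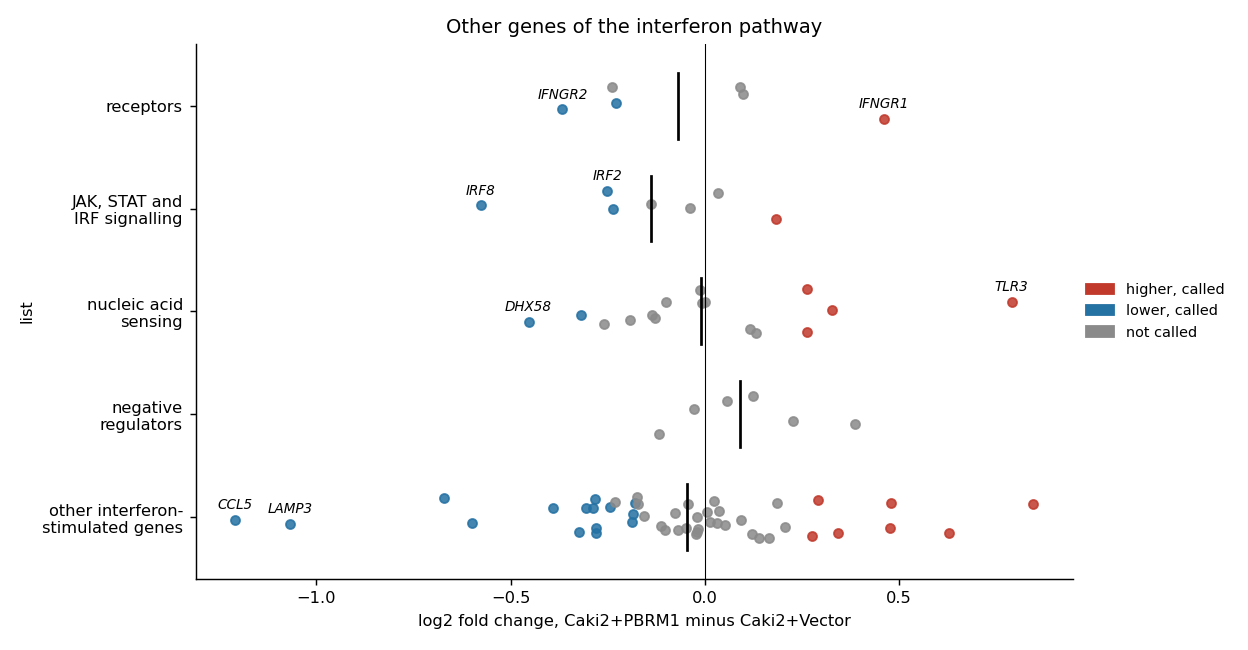
Log2 fold change of the 83 tested genes of 5 interferon pathway lists (the ligand list had no tested gene), 1 point per gene, with a black bar at the median of each list. Vertical position within a list is arbitrary, and CCL5 (-1.21) and CD274 (0.84) mark the ends of the range.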

How the data were processed

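Poly(A) RNA of 6 Caki2 cultures was sequenced. The authors trimmed adapters, removed poor and rRNA reads, aligned the rest to hg19 with STAR, counted them on genes with htseq-count and normalized with DESeq2. The deposited values are a signal per gene, read counts divided by a size factor per sample (0.834 to 1.191), without division by length. Whole reads were recovered for 100% of values within 0.01 read. Strand and multi-mapping settings are not given in the sources used here.

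Groups and letters came from the labels. The 13303 genes that reached 10 in 3 or more samples entered a two-sided moderated test (limma 3.58.1, run in R 4.3.3 with its trend and robust options) on log2(normalized count + 1), called at an adjusted p under 0.05 (Benjamini-Hochberg). A fold change on this scale understates that of low genes. edgeR 4.0.16, DESeq2 1.42.0 and voom were run on the recovered reads as alternatives. Other alternatives were the filter, a pseudocount of 0.5 or 4, quantile and TMM scaling, a replicate block, an adjusted p under 0.01 and leaving out each replicate. Scripts were tested on simulated data. Reads of 7312955 to 10835355 per sample on genes gave log2 fold changes with a median SE of 0.083. Genes below the filter were tested only in the alternative without a filter.

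Coordinates and canonical transcript lengths are GENCODE on GRCh37, and promoters are RefSeq on GRCh38.p14. Ratios of reads have exact conditional 95% intervals.

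The 44 members, the pathway lists and the marker lists were chosen with earlier results of these data known. Named genes were all members that passed, with the paralogs and locus neighbors of called members, up to 5 called genes with the largest log2 fold change in each pathway list, the receptors and IRF3. Other genes, among them JAK1, JAK2, TYK2, IFNB1, TMEM173 and those of the closing observations, were named after their values were seen. One gene of the pathway lists is not reported here and is not counted in them.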

Additional observations from a re-analysis of the deposited data

How the results depend on the processing

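The counts of 8 higher and 18 lower members were the same in edgeR, voom, TMM scaling and both pseudocounts. Requiring 10 in every sample left 4 higher members, because SAMD9L, GBP1, TRIM22 and GBP2 were then not tested. Over the other alternatives the counts were 6 to 8 higher and 15 to 19 lower, with 6 and 15 both in DESeq2 and at an adjusted p under 0.01 and 19 after quantile normalization. Leaving out each replicate gave 7 to 8 and 15 to 18. The median log2 fold change of the members ranged from -0.211 to -0.164. Of the calls, 15 of 18 lower and 5 of 8 higher held in every alternative that gave a value. The exceptions were IFIT5, UBE2L6, PARP9, MX2, GBP2 and LGALS3BP. Of 683 single-gene values, 22 lost their call, 4 gained one and 7 changed sign, all of genes without a call. Leaving out single replicates, IFITM1 ranged from -0.034 (without Caki2+Vector A) to 0.318, IFITM2 from -0.132 (without Caki2+Vector B) to 0.248, EIF2AK2 from -0.039 (without Caki2+Vector B) to 0.076, and IFI27 from -0.119 to 0.001 (without Caki2+PBRM1 C). OAS1 ranged from -0.06 (without Caki2+PBRM1 C) to 0.039, with -0.008 without Caki2+Vector B and -0.004 without Caki2+Vector C. The pathway lists ranged from 10 to 16 higher and from 16 to 24 lower genes.

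Replicates with the same letter did not deviate together (correlations 0.00587, -0.00767 and 0.0138 for A, B and C across genes), so the letters do not pair the samples. With the letter as a replicate block, 8 members were higher and 18 lower, and 13 and 24 genes of the pathway lists.

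At this depth the calls of SAMD9L, GBP1, TRIM22, GBP2 and MX2 rest on 11 to 50 reads in all Caki2+Vector libraries together, and interferon ligands could not be compared. No sequencing batch is given in the labels.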

Other observations

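Members of the same protein family kept different ratios in the 2 lines. TRIM22 reads per TRIM5 read were 0.0634, 0.0769 and 0.0631 in Caki2+Vector A, B and C and 0.259, 0.232 and 0.229 in Caki2+PBRM1 A, B and C. Among the apolipoprotein L genes, which lie outside the 44 members, APOL1, the trypanosome lytic factor, was higher (log2 fold change 0.48, adjusted p = 3.41e-11 from limma), as was APOL2 (0.48, adjusted p = 1.2e-08 from limma), and APOL6 was lower (-0.28, adjusted p = 2.61e-05 from limma), and APOL1 reads per APOL6 read went from 1.63, 1.69 and 1.57 to 2.82, 2.69 and 2.77. The reads of IFNGR1 per IFNGR2 read were 0.730, 0.768 and 0.713 in Caki2+Vector and 1.34, 1.33 and 1.26 in Caki2+PBRM1. These genes were named after their values were seen.

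Immunoproteasome genes PSMB8 (log2 fold change -0.28, adjusted p = 2.13e-05 from limma) and PSMB9 (-0.28, adjusted p = 0.00358 from limma) were lower, while TAP1 (0.01, adjusted p = 0.951 from limma) and B2M (-0.02, adjusted p = 0.867 from limma) did not pass. B2M had a normalized count of 8963 in Caki2+Vector A and of 7225 to 7993 in the other 5 cultures.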
